A study of Homo sapiens with 2 samples.

Results

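The tumour necrosis factor (TNF) superfamily was examined in a human monocytic leukaemia line in which LY6E, a gene for an interferon-inducible surface protein, was silenced. Its members were taken as every array probe whose single gene symbol in the platform annotation begins with TNFRSF (receptors) or TNFSF (ligands), or is LTA, LTB, LTBR, CD40, CD40LG, CD27, CD70, NGFR, EDAR or EDA2R. This gave 61 probes of 43 genes, out of 20046 genes named on the array: 27 receptors, 14 ligands, 1 readthrough transcript of adjoining ligand genes (TNFSF12-TNFSF13) and 1 RNA antisense to a receptor gene (TNFRSF14-AS1). CD40LG had 0 probes under that symbol and was not analysed here. THP-1 cells, a line of monocytic leukaemia, carried a stable short hairpin RNA (shRNA) against LY6E in the group called shLY6E, and a stable scrambled shRNA in the group called shCtrl. Both grew under puromycin at 400 ng/ml, and each gave 1 single-colour Illumina array of total RNA. The sources used here do not say whether either derivative was a clone or a pool of cells.

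TNF superfamily ligands are mostly membrane proteins, some of them shed, that act as trimers and cluster receptors on the same or a neighbouring cell. Receptors with a cytoplasmic death domain, such as TNFRSF1A, can assemble complexes that activate caspases, whereas those without one recruit TRAF adaptors and signal mainly through NF-kB and stress kinases. Decoy receptors bind ligand without passing on a full signal. Monocytes and macrophages both produce and respond to these ligands, and several of them carry signals between myeloid cells and lymphocytes.

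With 1 array per group (n = 1), no difference had a replicate check, no test between the groups was possible, and precision is limited by the number of arrays. Detection required a p-value below 0.01, the share of negative control probes as bright as the probe. Of 47321 probes, 16378 were detected in shLY6E and 16283 in shCtrl. The shLY6E array was dimmer throughout, with a median deposited intensity of 97.5 against 116 in shCtrl and a median over probes not detected, taken as the background level, of 92.8 against 110, so deposited intensities cannot be set against each other directly. Differences are therefore log2 differences, shLY6E minus shCtrl, after background correction and quantile normalization, and a fold is what that difference corresponds to. The median over all 10565 detected genes was -0.04. The spread that could be measured was between probes of 1 gene on the same arrays: over 2254 genes with several probes detected on both, the within-gene SD of the difference was 0.28. This SD does not measure the spread between replicate cultures or arrays, and it was pooled over dim and bright probes. LY6E itself had a normalized log2 intensity of 7.78 in shLY6E and 9.65 in shCtrl, or 3.67-fold lower in shLY6E. The myeloid markers CD68, CSF1R, CSF2RA, FCGR1A, ITGAM and SPI1 were all detected (6 of 6 with a probe). Their brightest probes summed to 8309 in shLY6E and 9996 in shCtrl before normalization, so the sums cannot be compared directly. After normalization, 0 of these probes were 2-fold apart. CSF1R was 1.93-fold, SPI1 1.44-fold and FCGR1A 1.08-fold higher, while ITGAM was 1.40-fold and CD68 and CSF2RA each 1.16-fold lower. Another CD68 probe, detected on both arrays, was 3.21-fold higher, and the remaining one was 1.14-fold lower. Markers of T cells (0 of 5 with a probe), fibroblasts (0 of 3), epithelial cells (0 of 2) and erythroid cells (0 of 2) were not detected. Of the B cell markers, CD79A and CD79B were detected (2 of 4), with a summed intensity of their brightest probes of 220 in shLY6E and 289 in shCtrl, and MS4A1 and PAX5 were not. CD79A was detected in shLY6E only, at least 1.23-fold higher, and CD79B was 1.77-fold lower. Of the NK cell markers, NKG7 was detected (1 of 3) at 571 in shLY6E and 308 in shCtrl, 3.39-fold higher. The part of such cells in the results was not tested.

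The superfamily was detected for 22 of its 43 genes: 17 on both arrays, 3 in shLY6E only and 2 in shCtrl only. Of all 20046 genes named on the array, 10565 were detected, 9370 of them with a probe detected on both arrays. The share of members detected was thus near that of all genes. As reported, 0 members were 2-fold apart, with CD40 at 1.99-fold and 5 members known only as bounds. CD40 passed 2-fold with median scaling over detected probes (1.05 on the log2 scale), and TNFSF9 passed it on the lower side with scaling on all probes (-1.17). The latter scaling put the median of all detected genes at -0.42, and TNFSF9 was at -0.75 relative to that median. It put 909 of all detected genes at least 2-fold lower, against 269 as reported. In the reported setting, 2.27% of all 10565 detected genes reached 2-fold higher and 2.55% reached 2-fold lower. At the lower mark of 1.5-fold, CD40, TNFRSF1B, TNFRSF12A, LTA and LTB were higher in shLY6E and TNFSF9 was lower, against 6.55% higher and 9.63% lower over all genes. Without background correction, which draws dim probes together, 1 of these 6 reached 1.5-fold (TNFRSF1B, at 0.68), while CD40 was at 0.48, LTB at 0.45, LTA at 0.33, TNFRSF12A at 0.24 and TNFSF9 at -0.47. With scaling on the median of all probes, CD40 and TNFSF9 reached it. Members just short of 1.5-fold were LTBR at 1.45-fold higher and TNFSF15 at 1.45-fold lower. The 21 genes not detected on either array comprised 14 receptors (CD27, NGFR, EDAR, EDA2R, TNFRSF6B, TNFRSF8, TNFRSF9, TNFRSF10C, TNFRSF11A, TNFRSF11B, TNFRSF13B, TNFRSF13C, TNFRSF17 and TNFRSF18), 5 ligands (TNFSF4, TNFSF8, TNFSF12, TNFSF13 and TNFSF18), the readthrough transcript and the antisense RNA. Their 25 probes had intensities of 82.9 to 103 in shLY6E and 93.5 to 118 in shCtrl, all below the lowest detected intensity of the same array (106 and 129), and what lies below that limit was not detectable here.

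**Figure D1:**
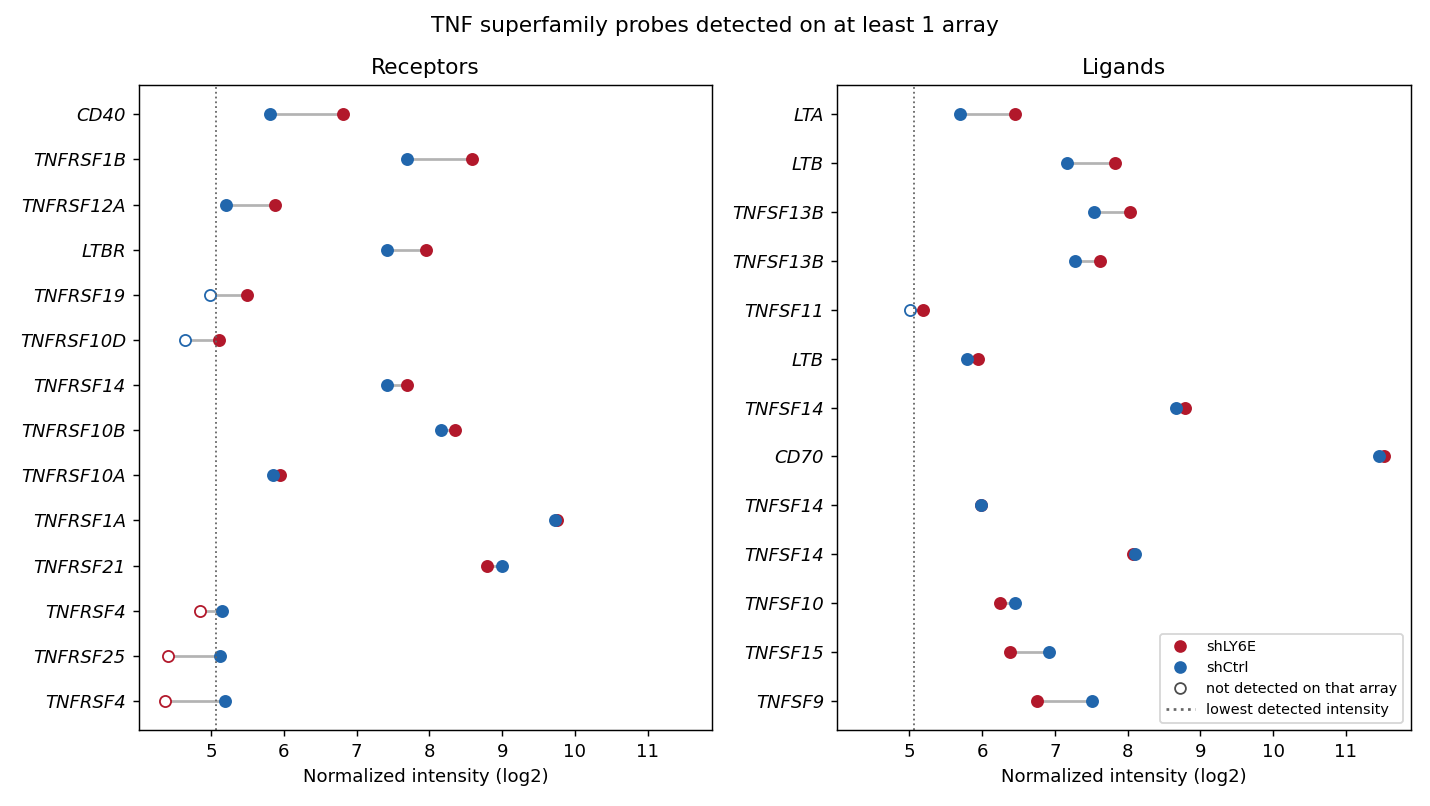
Normalized log2 intensity of the 27 superfamily probes detected on at least 1 array, shLY6E in red and shCtrl in blue, with receptors and ligands ordered by their difference. Open points are below detection on that array, the dotted line is the lowest detected intensity, a gene named more than once has several probes, and only the 2 points of a row can be compared, since probes differ in brightness.

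Of the 5 receptors detected on both arrays that have neither a death domain nor a decoy role, 3 were at least 1.5-fold higher in shLY6E and 2, LTBR and TNFRSF14, were not. CD40, through which T cells activate antigen-presenting cells, had a normalized log2 intensity of 6.81 in shLY6E and 5.81 in shCtrl, a difference of 0.99. The intensity as deposited stood at 168 in shLY6E and 157 in shCtrl, or 75.1 and 46.8 above the background level of each array. The other CD40 probe, annotated to another transcript, was not detected on either array, so CD40 rests on 1 probe. TNFRSF1B, the TNF receptor without a death domain, had 8.59 in shLY6E and 7.70 in shCtrl, and was 1.85-fold higher. Its deposited intensity, 383 in shLY6E and 339 in shCtrl, was the higher one in shLY6E even before any correction, which held for CD40 besides and for 0 of the other detected probes of members. TNFRSF12A, the receptor of the ligand TNFSF12, had 5.88 in shLY6E and 5.21 in shCtrl, a difference of 0.67 close to the detection limit, with intensities of 126 and 133.

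LTBR, the receptor of membrane lymphotoxin and of TNFSF14, had a normalized log2 intensity of 7.95 in shLY6E and 7.42 in shCtrl, a difference of 0.53. TNFRSF14, which binds TNFSF14 and the inhibitory receptor BTLA, had 7.69 in shLY6E and 7.41 in shCtrl, a difference of 0.28, about the size of the SD between probes of 1 gene. These 5 receptors thus ran from 0.28 to 0.99, with a median of 0.67, against -0.04 for all genes detected on both arrays; TNFRSF14 turned to -0.15 when both arrays were scaled to the same median over all probes, a scaling that put the median of all detected genes at -0.42. A further pair was detected on 1 array only, which forces the direction. TNFRSF19, a receptor with no firmly assigned TNF family ligand, was detected in shLY6E only (intensity 115, against 127 in shCtrl) and at least 1.34-fold higher, and its 3 other probes were detected on neither array. TNFRSF4, a costimulatory receptor of activated T cells, was detected in shCtrl only. Both TNFRSF4 probes had that pattern, with intensities of 102 and 89.9 in shLY6E, against 132 and 133 in shCtrl, and these correspond to bounds of 1.07-fold and 1.10-fold lower or more.

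As reported, the 4 death domain receptors detected on both arrays lay within 0.20 of 0. TNFRSF21 was at -0.24 with median scaling over detected probes and at -0.23 with the authors' processed intensities. Scaling on all probes put all 4 outside that range. TNFRSF1A, the widely expressed TNF receptor, had a normalized log2 intensity of 9.75 in shLY6E and 9.73 in shCtrl, a difference of 0.02. The receptors of the apoptosis-inducing ligand TNFSF10, also known as TRAIL, were both detected: TNFRSF10A differed by 0.09 and TNFRSF10B by 0.20. TNFRSF10A had intensities of 128 in shLY6E and 159 in shCtrl, and TNFRSF10B had 337 in shLY6E and 435 in shCtrl. The other TNFRSF10B probes were detected on neither array. Among them, the probe nearest detection had a detection p-value of 0.012 in shLY6E and a measured difference of 0.72, from values below detection. In their detected probes, none of these 3 receptors was as far from 0 as the SD between probes. All 3 were below 0 when the arrays were scaled on all probes, within 0.19 of the median of all genes. TNFRSF21, a death receptor known from neurons and lymphocytes, was the lowest of those detected on both arrays, with 8.80 in shLY6E and 8.99 in shCtrl, a difference of -0.19. With scaling on all probes it was at -0.67, past 1.5-fold lower and 0.26 below the median of all genes. TNFRSF25, the receptor of TNFSF15, was detected in shCtrl only, with an intensity of 91.9 in shLY6E, at the background level of that array, and 130 in shCtrl, and at least 1.05-fold lower. The difference as measured was -0.70, but it depends on a value below detection. Of the decoy receptors, TNFRSF10D was detected, in shLY6E only (intensity 107, against 117 in shCtrl), and at least 1.03-fold higher. TNFRSF10C, another decoy of TNFSF10, TNFRSF11B, the soluble decoy of TNFSF11, and TNFRSF6B, a soluble decoy of FASLG and TNFSF14, were not detected.

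Over the 13 detected receptors the median difference was 0.20, with 10 above 0, 3 past 1.5-fold on the higher side and 0 on the lower side. Among all 10565 detected genes, 4775 were above 0, and 6.55% and 9.63% passed 1.5-fold higher and lower, so 0 lower receptors is near that share. The direction of TNFRSF10D, TNFRSF19, TNFRSF4 and TNFRSF25 was forced, since each was detected on 1 array. Scaled on the median of all probes, the receptor median was -0.15, or 0.27 above the median of all genes at that scaling. The 4 death domain receptors detected on both arrays ran from -0.19 to 0.20, and the 5 others detected on both ran from 0.28 to 0.99, but the gap between TNFRSF10B (0.20) and TNFRSF14 (0.28) was smaller than the SD between probes. With the receptors detected on 1 array, those with neither a death domain nor a decoy role reached from 0.99 down to TNFRSF4, which has a bound of -0.10 or lower. As measured, the TNFRSF4 probes differed by -0.30 and -0.83, which depend on values below detection. Whether TNFRSF4 lay among the death domain receptors or below them is not known. This split by signalling type was made with the values known, and no test was made of it.

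**Figure D2:**
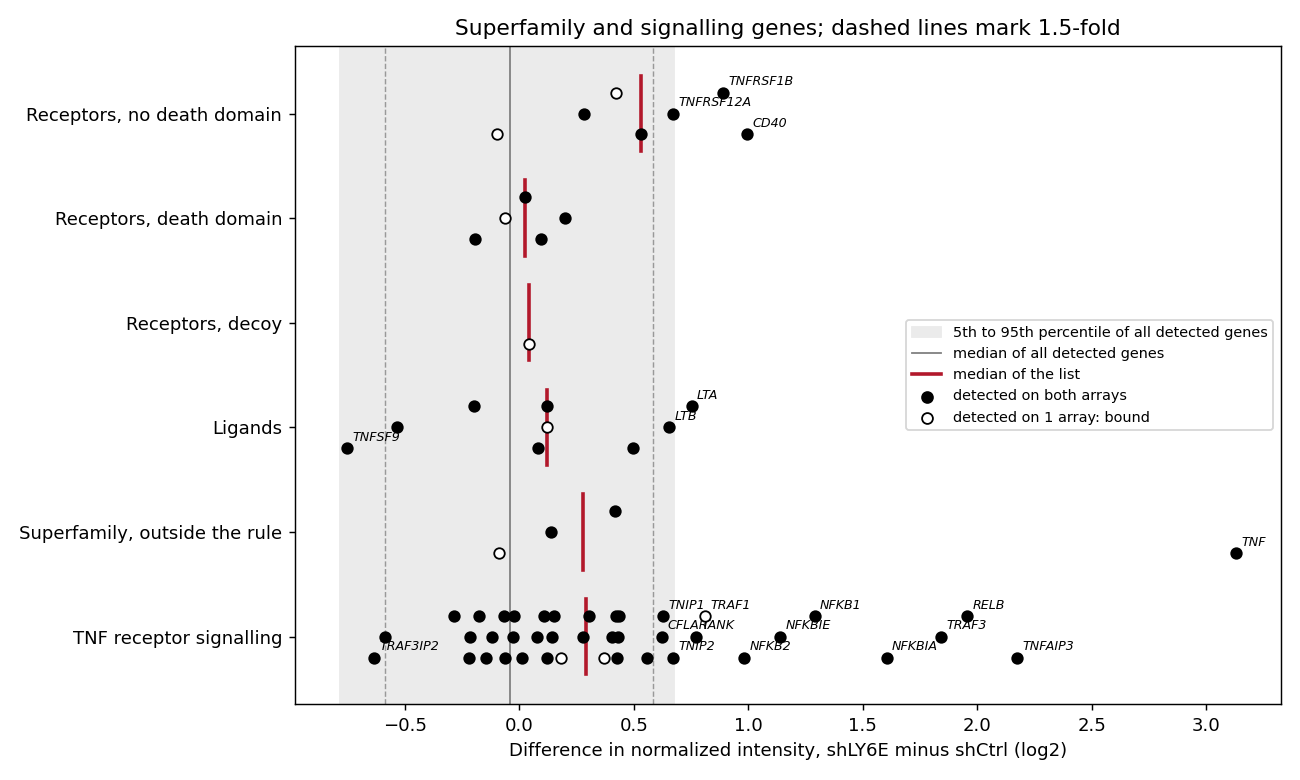
Log2 difference, shLY6E minus shCtrl, of each detected receptor, ligand and signalling gene, with open circles for bounds, red bars for list medians and grey for the 5th to 95th percentile of all detected genes (-0.78 to 0.67). Of the receptors detected on both arrays, those without a death domain run from 0.28 to 0.99 and those with one from -0.19 to 0.20, a split made with the values known. Of those detected on 1 array, TNFRSF4 and TNFRSF19, without a death domain, have bounds of -0.10 or lower and 0.42 or higher. TNFRSF25, with a death domain, has a bound of -0.06 or lower. With scaling on all probes, TNFRSF14, TNFRSF1A, TNFRSF10A and TNFRSF10B were below 0 and TNFRSF21 was at -0.67, where the median of all detected genes was -0.42.

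Of the 9 detected ligands, 2 passed 1.5-fold on the higher side and 1 on the lower side, against 6.55% and 9.63% of all detected genes, so the single lower ligand is near that share. LTA, the secreted lymphotoxin, had a normalized log2 intensity of 6.45 in shLY6E and 5.70 in shCtrl, and was 1.68-fold higher. Its deposited intensities were 148 in shLY6E and 152 in shCtrl. LTB, which anchors lymphotoxin in the membrane, had 7.83 in shLY6E and 7.17 in shCtrl in its brighter probe, and was 1.57-fold higher. The dimmer LTB probe, to the same transcript, gave 5.94 in shLY6E and 5.78 in shCtrl, a difference of 0.15. The LTB probes thus lay 0.50 apart, and the mean over both was below 1.5-fold. TNFSF13B, the B cell survival factor BAFF, was read by 2 probes with differences of 0.35 and 0.50.

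TNFSF9, a costimulatory ligand that binds TNFRSF9, was the lowest member, with a normalized log2 intensity of 6.75 in shLY6E and 7.51 in shCtrl, or 1.68-fold lower. Before normalization it read 165 in shLY6E and 308 in shCtrl, or 71.8 and 198 above the background levels. TNFSF15, a ligand of TNFRSF25, had 6.39 in shLY6E and 6.92 in shCtrl, a difference of -0.54, and its other probe was detected on neither array. TNFSF9 and TNFSF15 were below 0 under each other setting that could change their values, from -1.17 to -0.47 and from -0.93 to -0.29. The settings on detection, bounds, the mean over probes and chromosome 10 could only return the reported value. TNFSF10 was also lower, at 6.25 in shLY6E and 6.45 in shCtrl, but by 0.20, less than the SD between probes.

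CD70, the ligand of CD27, was bright on both arrays and nearly level, with deposited intensities of 2562 in shLY6E and 3349 in shCtrl, normalized log2 intensities of 11.53 and 11.45, and a difference of 0.08. TNFSF14, a ligand of LTBR and TNFRSF14, was read by 3 probes with differences of -0.02, 0.01 and 0.12, across deposited intensities of 130 to 426 in shLY6E and 165 to 579 in shCtrl. Its probes, 1 of them annotated to another transcript, were thus alike in showing almost no difference. CD70 and TNFSF14 were at -0.28 and -0.36 when the arrays were scaled on all probes, which is 0.14 and 0.06 above the median of all genes there. TNFSF11, the osteoclast differentiation ligand RANKL, was detected in shLY6E only (intensity 109, against 127 in shCtrl) and at least 1.09-fold higher, with 2 other probes detected on neither array. The ligand median was 0.12, or -0.28 with scaling on all probes, 0.14 above the median of all genes.

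**Figure D3:**
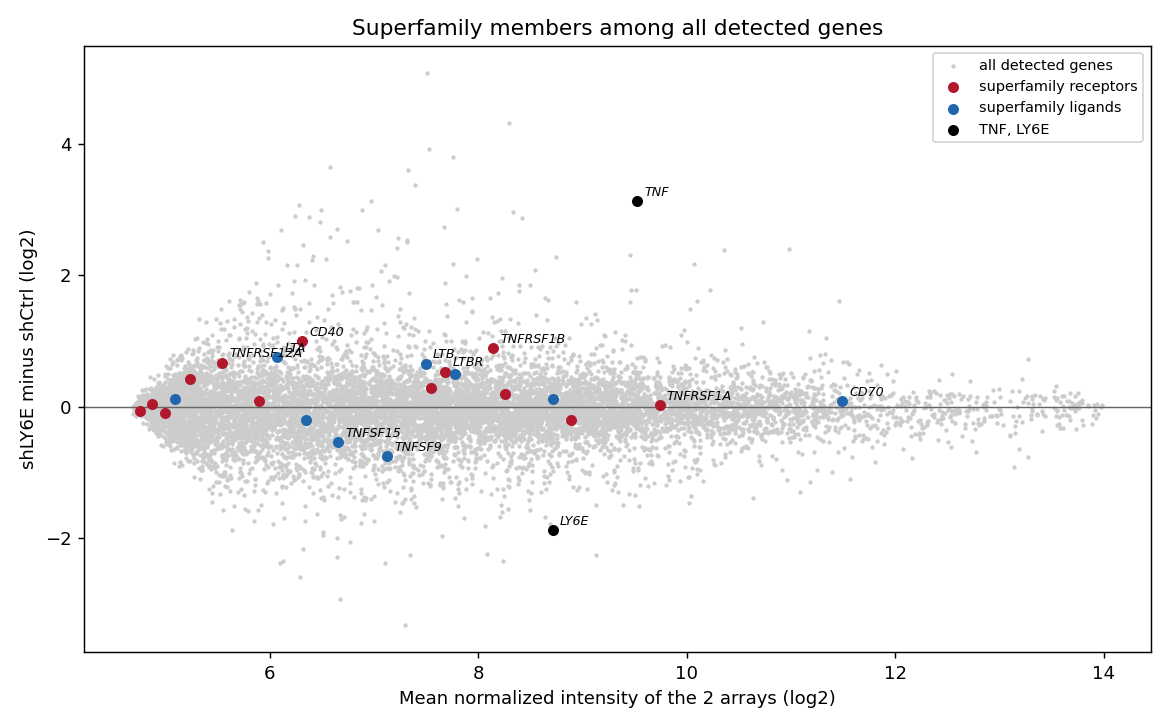
Log2 difference, shLY6E minus shCtrl, against mean normalized log2 intensity for each of 10565 detected genes (grey), with superfamily receptors in red, ligands in blue and TNF and LY6E in black. The members lie between -0.75 for TNFSF9 and 0.99 for CD40, with TNF at 3.13 and LY6E at -1.88. All detected genes run from -3.31 to 5.07.

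TNF itself carries neither prefix and is not counted among the members. It had deposited intensities of 1863 in shLY6E and 391 in shCtrl, a difference of 3.13, so that the ligand that names the superfamily stood far outside the range of the 22 members, -0.75 to 0.99. Of the other superfamily genes that the symbols do not catch, RELL2 differed by 0.14 and RELL1 by 0.42, both being relatives of the TNF receptor family gene RELT. RELT was detected in shCtrl only and at least 1.06-fold lower. FAS, FASLG and EDA were not detected on either array. LTA, TNF and LTB lie side by side on chromosome 6 with no other protein-coding gene between them, in the RefSeq gene order of GRCh38.p14, and the 3 had differences of 0.75, 3.13 and 0.65. The 5 nearest detected genes on either side had a median of 0.02 and ran from -0.30 to 0.71. TNFSF9, CD70 and TNFSF14 form another run of adjoining genes, on chromosome 19, and had differences of -0.75, 0.08 and 0.12, so neighbours here differed. Their 10 nearest detected genes had a median of 0.08 and ran from -0.27 to 2.98. TNFRSF1A and LTBR lie close together on chromosome 12, and had differences of 0.02 and 0.53. On chromosome 1, TNFRSF1B, TNFRSF14, TNFRSF4 and TNFRSF25 lie in a span of 148 protein-coding genes, in which the 83 other detected genes had a median of -0.13. The members on chromosome 8, TNFRSF10A, TNFRSF10B and TNFRSF10D, are closely related in sequence, and whether a probe of one also reads another was not tested.

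Ligands and receptors that bind each other were set side by side. For TNF, the receptor without a death domain (TNFRSF1B, 0.89) was higher and the death domain receptor (TNFRSF1A, 0.02) was level. For membrane lymphotoxin, LTB gave 0.65 and 0.15 in its probes and its receptor LTBR, which did not reach 1.5-fold, gave 0.53; with scaling on all probes LTB was at 0.21 and LTBR at 0.08. TNFSF14 (0.12) had both of its receptors detected. TNFSF9, lower in shLY6E, and CD70 had receptors, TNFRSF9 and CD27, that were not detected in these cells, and the same held for TNFSF13B, of whose receptors TNFRSF13B, TNFRSF13C and TNFRSF17 none (0 of 3) was detected. In the other direction, TNFRSF12A and TNFRSF4 were detected on at least 1 array while their ligands TNFSF12 and TNFSF4 were not.

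Promoters were searched for a motif of NF-kB as a description, and whether NF-kB had a part in any difference was not tested. RefSeq promoters of GRCh38.p14, each 250 bases before to 50 bases after a gene's start, were held for 15 of the 22 detected members, in 21 promoters. They are shown for the 4 of these that were at least 1.5-fold apart, LTA, LTB and TNFRSF1B (higher) and TNFSF9 (lower), with capitals marking matches to the kappaB consensus of NF-kB, searched on both strands. The windows are chr6:31572039-31572338 (+ strand) for LTA, chr6:31582375-31582674 (- strand) for LTB, chr1:12166741-12167040 (+ strand) for TNFRSF1B and chr19:6530776-6531075 (+ strand) for TNFSF9, each written from 5′ to 3′ on its own strand.
LTA: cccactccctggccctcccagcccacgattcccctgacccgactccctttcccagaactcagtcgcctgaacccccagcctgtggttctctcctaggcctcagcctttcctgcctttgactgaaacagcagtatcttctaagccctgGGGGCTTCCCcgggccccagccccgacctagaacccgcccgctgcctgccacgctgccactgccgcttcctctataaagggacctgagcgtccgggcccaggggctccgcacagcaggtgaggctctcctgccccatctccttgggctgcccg
LTB: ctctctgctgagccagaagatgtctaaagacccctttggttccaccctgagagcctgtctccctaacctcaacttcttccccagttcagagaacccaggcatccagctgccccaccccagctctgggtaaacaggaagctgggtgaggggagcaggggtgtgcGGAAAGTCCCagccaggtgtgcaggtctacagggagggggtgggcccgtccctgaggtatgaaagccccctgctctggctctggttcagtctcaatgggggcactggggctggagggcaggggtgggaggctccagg
TNFRSF1B: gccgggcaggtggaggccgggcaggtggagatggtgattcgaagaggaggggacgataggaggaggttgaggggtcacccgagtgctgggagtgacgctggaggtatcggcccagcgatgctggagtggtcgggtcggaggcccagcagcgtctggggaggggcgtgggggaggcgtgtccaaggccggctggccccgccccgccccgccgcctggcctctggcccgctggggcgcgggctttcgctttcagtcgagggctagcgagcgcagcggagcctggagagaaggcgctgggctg
TNFSF9: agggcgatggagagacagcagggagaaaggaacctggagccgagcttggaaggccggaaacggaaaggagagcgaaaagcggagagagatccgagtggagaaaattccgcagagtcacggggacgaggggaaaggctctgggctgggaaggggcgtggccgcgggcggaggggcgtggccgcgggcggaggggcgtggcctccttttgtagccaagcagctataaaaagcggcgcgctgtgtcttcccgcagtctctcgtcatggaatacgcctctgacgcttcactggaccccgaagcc

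The match in the LTA window began 103 bases before the start and that in the LTB window 87 bases before it, while the TNFRSF1B and TNFSF9 windows held none. The table has another start of LTA, whose window held none either, and the window of TNF, the gene with a difference of 3.13, held none. Among the 21 member promoters, 7 (33.3%) held a match, those of LTA, LTB, TNFRSF14, TNFRSF25 and TNFSF14. The share was 5.91% of all 35116 promoters and 6.88% of the 12477 promoters of detected genes. Of these 5 genes, LTA and LTB were at least 1.5-fold higher, TNFRSF14 and TNFSF14 differed by 0.28 and 0.12, and TNFRSF25 was detected in shCtrl only. An AP-1 motif, TGANTCA, also searched on both strands, was found in the windows of TNFSF14 and TNFSF15, in 3 of the 21 promoters (14.3%), against 7.71% of all promoters and 4.91% of those of detected genes, and overlapped a kappaB match in 0 of them. Starts of 1 gene give overlapping windows, so promoters are not separate readings. A match describes these letters only, and a window without one says nothing of sites further away.

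Several genes that carry or restrain the signal from the receptors were further apart than any member. Of 48 listed TNF receptor signalling genes, 45 had a probe and 40 were detected. Of these, 12 passed 1.5-fold on the higher side, 6 of them past 2-fold, and 1 on the lower side, where 0 passed 2-fold; their median difference was 0.29. Over all detected genes the shares were 6.55% higher and 9.63% lower at 1.5-fold, and 2.27% higher and 2.55% lower at 2-fold. The signalling list was chosen with earlier results of these data known, so this contrast is a description and was not tested. With scaling on all probes the median of the list was -0.08, or 0.34 above the median of all genes. The 6 were TNFAIP3, which encodes the ubiquitin-editing enzyme that ends NF-kB signalling, at 4.51-fold, RELB at 3.88-fold, TRAF3 at 3.59-fold, NFKBIA at 3.04-fold, NFKB1 at 2.45-fold and NFKBIE at 2.20-fold. RELB and NFKB1 are NF-kB subunit genes, and NFKBIA and NFKBIE encode inhibitors that hold NF-kB in the cytoplasm. NFKB2, the subunit gene processed downstream of LTBR, CD40 and TNFRSF12A, was 1.98-fold higher, and its other detected probe gave 1.88-fold. TRAF3, an adaptor that restrains this branch, had a normalized log2 intensity of 7.90 in shLY6E and 6.06 in shCtrl.

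The other detected TRAF adaptors were TRAF1, TRAF4 and TRAF6. TRAF1, which is recruited to receptors such as TNFRSF1B, was detected in shLY6E only (intensity 126, against 118 in shCtrl) and at least 1.75-fold higher. TRAF6, an adaptor of CD40 and of Toll-like receptors, gave 0.14 and -0.12 in its probes, and TRAF4 gave -0.07. TRAF5 was not detected, and TRAF2, RIPK1 and BIRC3 were not analysed here. TANK, a TRAF-binding protein, and TNIP2 and TNIP1, partners of the TNFAIP3 product, were 1.71-fold, 1.59-fold and 1.55-fold higher. In the death-inducing branch, FADD, the adaptor of death receptors, differed by -0.14 and TRADD, the adaptor of TNFRSF1A, by 0.15, while CASP8 and CASP10 were not detected. CFLAR, which encodes an inhibitor of caspase-8 activation, was 1.54-fold higher. The lowest of the list were TRAF3IP2, an adaptor of interleukin-17 receptors, at 1.55-fold lower, and CHUK, an IkB kinase gene on chromosome 10, at -0.58. FADD, TRADD, CFLAR and CHUK were picked for description after their values were seen.

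**Figure D4:**
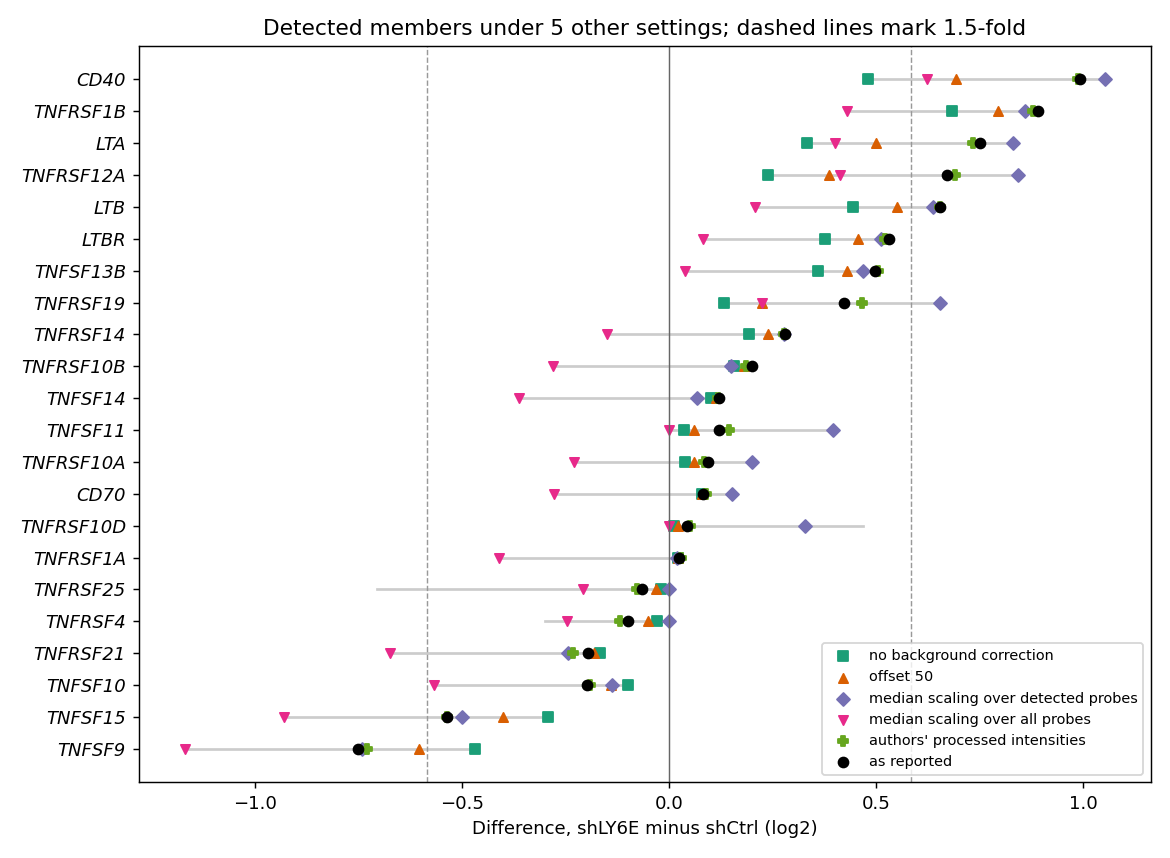
Log2 difference, shLY6E minus shCtrl, of the 22 detected members as reported (black) and under 5 of the 11 other settings (coloured); grey bars span all settings and dashed lines mark 1.5-fold. CD40 runs from 0.48 to 1.05 and TNFSF9 from -1.17 to -0.47 without crossing 0, whereas TNFRSF14, TNFRSF10B, TNFRSF10A, TNFRSF1A, TNFSF14 and CD70 fall below 0 with scaling on all probes. That scaling put the median of all detected genes at -0.42, and each of the genes named as falling below 0 was above that median.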

How the data were processed

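Expression was measured in 1 THP-1 derivative with an shRNA against LY6E and 1 with a scrambled shRNA, grouped by sample title, on 1 array each. Per the labels, biotin-labelled cRNA was made from DNase-treated total RNA. The deposited table gave an unnormalized linear intensity per probe and, per the file headers, a detection p-value. From the values, these p-values moved in steps of 1 in 770. Another deposited table held the processed intensity of the authors, which from the values was background-subtracted and normalized (median 6.14 in both columns). Its method is not stated in the sources used here. Every column had a sample (0 left over).

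Intensities were background-corrected by normexp through the detection p-values with an offset of 16, then quantile-normalized (limma 3.58.1, R 4.3.3). Later steps used Python 3.11.15, numpy 2.4.6, pandas 2.3.3 and matplotlib 3.10.9. Steps were tested on simulated arrays. The kept probe with the highest mean stood for a gene. Against an array without detection, the difference is a bound, set by the higher of the probe's own value and the lowest detected one there, and written "at least". Of the 10565 detected genes, 26 had such a bound on the wrong side of 0 and were entered at 0, none (0) of them a member. Of 30113 probes with 1 symbol, 30074 matched a RefSeq gene of GRCh38.p14; 8 had several symbols and 17200 none. The genome build used for the probes is likewise not stated. Probe sequences were not used here.

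The members and lists were chosen with earlier results of these data known. All detected members are named, as are detected TRAF genes and the 10 other signalling genes furthest from 0; others are said to be chosen after their values were seen. With no replicates, a value counted as moved when it changed by more than the SD between probes of a gene. Alternatives are given in the closing section.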

Additional observations from a re-analysis of the deposited data

How the results depend on the processing

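All 6 members at least 1.5-fold apart kept their direction under each of 11 other settings. These 6 were detected on both arrays and lie off chromosome 10. The settings on detection, bounds and chromosome 10 therefore could not change them, and their agreement there was fixed in advance. Of 443 single-gene values recomputed for 41 genes, 60 moved by more than the SD between probes, and some of the others could not move for the same reason. The size depended on the background: without background correction 1 of the 6, TNFRSF1B, was still 1.5-fold apart, with offset 50 it was 3, and both settings shrink differences of dim genes by construction. Scaling on the median of all probes, chosen after seeing the data, moved the median of all genes to -0.42. It put the receptor, ligand and signalling medians at -0.15, -0.28 and -0.081 and that of the superfamily genes outside the symbol rule at -0.025 (0.28 as reported), against which 2 of the 6 members were 1.5-fold apart; the cause was not tested. Receptors at least 1.5-fold higher numbered 1 (from 3) without background correction and 1 with scaling on all probes. Receptors at least 1.5-fold lower numbered 1 (from 0) with scaling on all probes, where it was TNFRSF21, with no detection filter and with bounds replaced by measured differences, which in the last case counts TNFRSF25. Ligands at least 1.5-fold lower (1 as reported) numbered 0 without background correction and 2 with scaling on all probes. Ligands at least 1.5-fold higher (2 as reported) numbered 0 without background correction, with scaling on all probes or with offset 50, and 1 with the mean over probes. Over all genes, those at least 2-fold higher (240 as reported) numbered 97 without background correction, 130 with scaling on all probes and 144 with offset 50; those at least 2-fold lower (269 as reported) numbered 65, 909 and 129 in the same order and 158 without chromosome 10, which holds 0 of the members. Median scaling over detected probes, a looser detection limit (p-value of 0.05), detection on both arrays and the authors' processed intensities left these medians within the SD between probes and the counts within 1.5 times those reported. The median intensity of detected probes was 200 in shLY6E and 274 in shCtrl, against background levels of 92.8 and 110, which limits what can be read for dim members. No paired analysis was possible because there was 1 array per group.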
